A study of Homo sapiens with 4 samples.

Results

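The regions described here were open in both WT control libraries and in exactly 1 of the 2 DEK KO libraries of 786-O cells. The members were chosen by presence and absence of called peaks: on chromosomes 1 to 22, peaks of the 4 lists that shared 1 bp or more were joined, and a region counted when it held a peak of both WT control lists and of exactly 1 DEK KO list. Of 134897 merged regions, 7035 (5.22%) met this rule. Among them, 2323 lacked a peak in DEK KO replicate 1 and 4712 lacked one in DEK KO replicate 2.

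ATAC-seq marks open chromatin by letting a transposase cut and tag accessible DNA, and each library was deposited as 1 list of called peaks. 786-O is a human clear cell renal carcinoma line that lacks the VHL protein. The DEK KO cells (2 libraries) came from a Cas9-expressing clone made with LentiCas9-Blast virus, received LentiGuide-Puro virus with DEK guide RNAs and were sorted as single cells. The WT controls (2 libraries) were Cas9-expressing negative control cells with a WT genotype, so all 4 libraries carried Cas9. Whether the 2 libraries of a genotype were separate clones or cultures is not in the labels. A difference between DEK KO replicates 1 and 2 therefore compares 1 library with 1 library, and it has no replicate check.

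DEK is an abundant nuclear protein that can deposit histones and supercoil DNA. Open chromatin in a cell line falls mainly into promoters, which tend to be rich in GC bases and open in most cell types, and distal elements such as enhancers, which are often open in few cell types. A peak caller records a region as present once its reads exceed a local background by a fixed error limit, so a region with few reads can be listed in 1 library and be absent in another.

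Promoter sequences are shown as examples of members at transcription starts. For each set, the 3 sequences are the 250 bases before a RefSeq transcription start (GRCh38.p14, written 5′ to 3′ on the strand of the gene). They belong to the 3 highest-ranked eligible members that covered at least 50% of those bases. Capitals mark matches on either strand to any of 7 motifs. The GC box is spelled GGGCGG and is read by SP and KLF factors. The box named for its letters CCAAT is read by the NF-Y complex. The core of the ETS family is spelled CCGGAAG here. The AP-1 motif, read by FOS and JUN dimers, is spelled TGACTCA in this search. The E-box, read by MYC and related factors, is spelled CACGTG in this search. The core of the HIF motif was searched as ACGTG, which every E-box also contains. The TATA box, read by the TATA-binding protein, was searched as TATAAA on both strands. A match to these letters is not a binding site. Missing in DEK KO replicate 1:
CCDC146 (chr7:77122365-77122614, + strand): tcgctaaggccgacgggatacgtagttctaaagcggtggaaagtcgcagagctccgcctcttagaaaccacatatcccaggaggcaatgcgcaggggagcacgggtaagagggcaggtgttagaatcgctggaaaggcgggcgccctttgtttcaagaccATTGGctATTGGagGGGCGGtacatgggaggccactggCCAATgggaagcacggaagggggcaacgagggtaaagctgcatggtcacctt
NOTCH2NLC (chr1:149390371-149390620, + strand): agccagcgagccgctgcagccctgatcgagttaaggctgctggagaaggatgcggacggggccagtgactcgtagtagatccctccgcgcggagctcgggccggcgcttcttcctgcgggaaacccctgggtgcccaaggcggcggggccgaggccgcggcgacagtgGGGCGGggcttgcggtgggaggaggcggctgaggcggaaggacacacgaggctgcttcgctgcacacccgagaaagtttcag
KDM3B (chr5:138352435-138352684, + strand): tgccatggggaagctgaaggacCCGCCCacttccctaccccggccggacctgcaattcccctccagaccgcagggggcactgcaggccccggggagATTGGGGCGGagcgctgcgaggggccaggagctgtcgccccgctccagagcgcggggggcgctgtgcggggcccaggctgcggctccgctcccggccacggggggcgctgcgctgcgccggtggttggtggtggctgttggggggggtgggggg
Missing in DEK KO replicate 2:
SLC23A1 (chr5:139383298-139383547, - strand): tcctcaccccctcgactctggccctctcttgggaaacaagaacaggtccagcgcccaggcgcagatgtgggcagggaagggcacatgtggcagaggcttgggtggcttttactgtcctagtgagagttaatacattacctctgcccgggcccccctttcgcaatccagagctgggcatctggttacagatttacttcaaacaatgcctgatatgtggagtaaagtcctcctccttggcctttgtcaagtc
TLR5 (chr1:223143249-223143498, - strand): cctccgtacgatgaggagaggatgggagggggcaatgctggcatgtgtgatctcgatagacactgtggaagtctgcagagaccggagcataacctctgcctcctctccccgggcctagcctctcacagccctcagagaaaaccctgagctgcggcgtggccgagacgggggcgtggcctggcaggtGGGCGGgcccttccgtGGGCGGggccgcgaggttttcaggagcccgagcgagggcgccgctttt
ARHGEF10L (chr1:17579933-17580182, + strand): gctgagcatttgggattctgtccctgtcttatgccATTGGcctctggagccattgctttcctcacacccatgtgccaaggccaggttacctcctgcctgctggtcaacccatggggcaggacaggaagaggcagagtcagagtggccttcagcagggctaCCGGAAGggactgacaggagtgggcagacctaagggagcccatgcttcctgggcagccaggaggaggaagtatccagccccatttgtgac

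The 3 promoters missing in DEK KO replicate 1 had GC contents of 57.6% (CCDC146), 69.2% (NOTCH2NLC) and 76.4% (KDM3B) over the printed bases. Those missing in DEK KO replicate 2 had 54.4% (SLC23A1), 66.0% (TLR5) and 58.8% (ARHGEF10L). CpG dinucleotides, in which a C is followed by a G, numbered 15 at CCDC146, 26 at NOTCH2NLC and 22 at KDM3B, against 5 at SLC23A1, 19 at TLR5 and 1 at ARHGEF10L. CCDC146 held 1 GC box and 3 CCAAT boxes, NOTCH2NLC 1 GC box, and KDM3B 2 GC boxes and 1 CCAAT box, which overlaps a GC box. TLR5 held 2 GC boxes and ARHGEF10L 1 CCAAT box and 1 ETS core, while SLC23A1 held none of the 7 motifs searched. In GC content, CpG number and GC boxes the 6 sequences overlapped between the sets, so they do not by themselves show the difference found over all promoters of the sets below. CCDC146 encodes a coiled-coil protein of centrioles and sperm flagella, NOTCH2NLC is a human-specific partial copy of NOTCH2, and KDM3B is a histone H3 lysine 9 demethylase. SLC23A1 is a vitamin C transporter of epithelia that include the kidney tubule, TLR5 the receptor for bacterial flagellin, and ARHGEF10L a guanine nucleotide exchange factor.

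The lists held 100037 and 96862 peaks in DEK KO replicates 1 and 2, against 87220 and 88059 in WT control replicates 1 and 2. Read totals are not part of the lists, but the height of each peak in whole reads (its summit pileup) could be solved from the deposited fold and p. Median summit pileup was 25 and 28 reads in DEK KO replicates 1 and 2, and 31 and 30 in the WT controls. The lowest pileup of a listed peak was 7 reads in both DEK KO lists and 8 in both WT control lists. Of 10 renal and clear cell carcinoma markers, 7 had a gene-end region called in all 4 lists, among them PAX8, LHX1, VEGFA, VIM, CDH2 and MET, and PAX2 had its promoter called in all 4. CA9 and NDUFA4L2, both HIF targets, had no gene-end region in any list. Of 8 markers of other cells, 6 had no gene-end region (CDH5, PECAM1, PTPRC, CD3E, ALB and RBFOX3), while COL1A1 and EPCAM had one in all 4 lists. The gene-end region of DEK and the other 3 regions within the gene were called in all 4 lists. This does not check the knockout, which leaves the gene in place. The gene nearest to 1 member was DEK: it lay 4.74 kb beyond the gene and was missing in DEK KO replicate 2 (18 reads in DEK KO replicate 1, 19 and 20 in WT control replicates 1 and 2).

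Both control lists shared 71524 regions, and 3.25% of them were missing in DEK KO replicate 1 alone, 6.59% in replicate 2 alone and 9.84% in exactly 1 DEK KO list. A further 4.83% were missing in both. Members missing in replicate 1 thus made up 33.0% of all members (exact 95% binomial interval 31.9 to 34.1, which covers counting error only, as do all intervals here). The mirror image of the set served as its counterpart: 7985 regions had a peak in both DEK KO lists and in exactly 1 WT control list. Of these, 3757 were missing in WT control replicate 1, 4.85% of the 77443 regions shared by the DEK KO lists, and 4228 in WT control replicate 2, which was 5.46%. The share missing in replicate 1 was 47.1% (46.0 to 48.2) among counterparts. Replicate 2 lacked 2.03 times as many regions as replicate 1 in DEK KO and 1.13 times as many in the WT controls. Per library, 3518 ± 1690 regions were missing only there in DEK KO and 3992 ± 333 in the WT controls (SD, n = 2 each). The difference of -475 was smaller than the spread between the DEK KO libraries (exact permutation test, two-sided, p = 1; the smallest p possible is 0.333). DEK KO replicate 1 had the fewest such regions of the 4 libraries and DEK KO replicate 2 the most.

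Near the ends of genes the 2 DEK KO libraries lacked similar numbers of regions, and they differed away from them. A gene-end region lay within 1 kb of either end of a protein-coding gene in RefSeq. Of the 11906 such regions in both control lists, 1.77% (211) were missing in DEK KO replicate 1 alone and 1.73% (206) in replicate 2 alone. Of the 59618 regions farther from gene ends, 3.54% (2112) were missing in replicate 1 alone and 7.56% (4506) in replicate 2 alone. Inside gene spans the shares were 3.63% and 7.52%, and between genes they were 3.44% and 7.6%. Gene-end regions hence made up 9.08% of members missing in replicate 1 (7.95 to 10.3) and 4.37% of those missing in replicate 2 (3.81 to 5.0), a difference of 4.71 percentage points. The counterparts showed 5.91% for WT control replicate 1 and 6.43% for replicate 2, a difference of -0.524 points. Gene-end regions were 18.5% of the regions with a peak in every list.

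**Figure D1:**
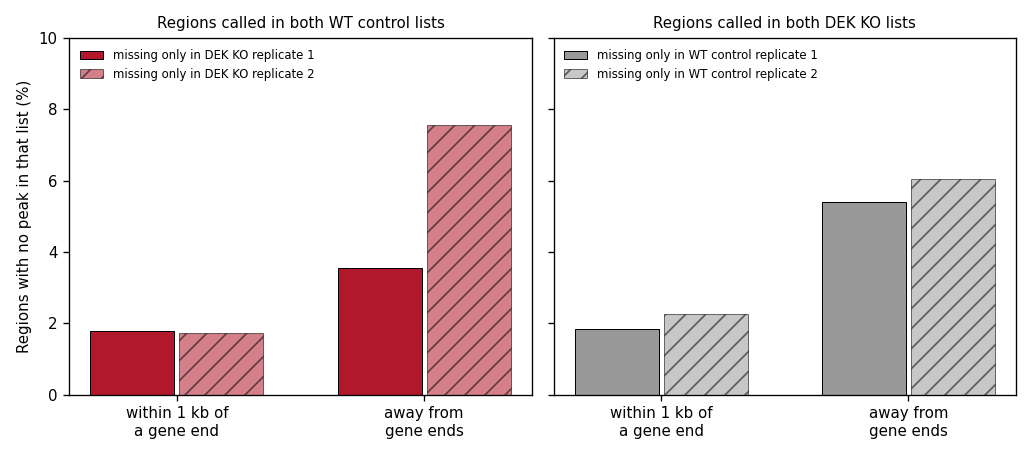
Share of regions with no peak in 1 library alone, within 1 kb of a gene end and farther away. On the left, regions of both WT control lists missing in DEK KO replicate 1 or 2: the bars are near-equal at gene ends (1.77% and 1.73%) and differ away from them (3.54% and 7.56%). On the right, regions of both DEK KO lists missing in WT control replicate 1 or 2 (1.83% and 2.25% at gene ends, 5.41% and 6.06% away). Each bar is 1 library, with no replicate error.

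Promoters in the RefSeq table run from 250 bases before a start to 50 after it. Members missing in DEK KO replicate 1 overlapped a promoter in 79 cases (3.4%, 2.7 to 4.22), and those missing in replicate 2 in 56 cases (1.19%, 0.899 to 1.54). These members met 89 promoters of 81 genes and 63 promoters of 56 genes. The promoters met by members missing in replicate 1 had a median GC content of 69.7% and a median of 30 CpG per window of 300 bases, against 56.0% and 8 CpG for those missing in replicate 2. Promoters in regions called in all 4 lists had 65.3% and 26 CpG, and all 21156 promoters 62.7% and 21 CpG. The medians of the 2 sets thus lay on opposite sides of the median over all promoters, but the sets overlapped. The lower and upper quartiles of GC content were 57% and 77% for replicate 1, and 45.5% and 67.5% for replicate 2.

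A promoter counted as missing in a replicate when the region that overlapped it most was a member missing there, however small the overlap. Some members met several promoters, which the intervals do not allow for. The GC box was present in 76.4% (66.2 to 84.8) of promoters missing in DEK KO replicate 1 and in 38.1% (26.1 to 51.2) of those missing in replicate 2. It was present in 70.9% of promoters open in all 4 lists and in 56.6% of all promoters. The CCAAT box was present in 23.6% of promoters missing in replicate 1 and 20.6% of those missing in replicate 2, against 37.1% of promoters open in all 4 lists and 34.4% of all promoters. The ETS core was present in 10.1% and 6.35% of the same sets, against 20.5% where all 4 lists had a peak and 12.9% of all promoters. The AP-1 motif was found in 2 promoters missing in replicate 1 (2.25%) and 4 missing in replicate 2 (6.35%), against 3.98% of all promoters. E-boxes were present in 10.1% and 6.35% of the sets and 8.25% of all promoters, the HIF core in 19.1% and 15.9% and 22.9%, and the TATA box in 10.1% and 6.35% and 9.51%. For every motif but the GC box the intervals of the 2 sets overlapped.

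The contrast between gene ends and regions farther away went together with the number of genes nearby. When the regions of both control lists were split into 5 groups of similar size by the number of protein-coding genes in the surrounding 1 Mb, the share of regions missing in DEK KO replicate 1 alone was nearly flat, between 2.97% and 3.38%. The share missing in replicate 2 alone was 9.32%, 7.15%, 6.41%, 5.15% and 3.81% from the group with the fewest genes to that with the most. Members missing in replicate 1 made up 26.6% of the members in the group with the fewest genes and 47.0% in the group with the most. The counterparts ran from 45.2% to 50.5% over their groups. Away from gene ends the share of members still ran from 26.2% to 45.5%.

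Between the 2 sets the control peaks differed in width and little in height. The median width in WT control replicate 1 was 399 bp for members missing in DEK KO replicate 1 and 483 bp for those missing in replicate 2, and in WT control replicate 2 it was 426 and 510 bp. Both control lists gave a difference of -84 bp. Median summit pileup in the controls differed little, with 19 reads against 20 in WT control replicate 1 and 19 reads in both sets in replicate 2. Ranked by the p of each peak within its list, members missing in replicate 1 lay at a median percentile of 27.9 and those missing in replicate 2 at 31.2 in WT control replicate 1, and at 29.5 and 32.8 in WT control replicate 2. In the DEK KO list that had the peak, members missing in replicate 1 had a median of 17 reads, 352 bp and the percentile 26.5 in DEK KO replicate 2. Members missing in replicate 2 had 15 reads, 454 bp and the percentile 27.2 in DEK KO replicate 1. Members were weak in both sets beside regions called in all 4 lists, which had a median of 43 reads in either control list. The rule asks for an absent peak, which favours weak regions. Counterparts missing in WT control replicate 1 had 15 reads in replicate 2, and those missing in replicate 2 had 16 in replicate 1. Control regions missing in both DEK KO lists had 16 reads in either control list.

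Over 5 groups of similar size, from the narrowest to the widest control peaks, the share of members missing in DEK KO replicate 1 was 41.4%, 31.7%, 25.6%, 14.7% and 10.3%. Among regions of both control lists in the widest group, 0.168% (24) were missing in replicate 1 alone and 1.46% (208) in replicate 2 alone. In the narrowest group the values were 9.34% (1341) and 13.2% (1898). At gene ends the narrowest group had 123 members missing in replicate 1 and 89 missing in replicate 2 (58.0%, 51.1 to 64.7, missing in replicate 1). In the wider gene-end groups that share was 47.6%, 36.9%, 45.5% and 30.8%, the last from only 4 and 9 members. By control percentile the share missing in replicate 1 went from 36.3% in the weakest group to 20.8% in the strongest, which held only 5 and 19 members. The counterparts ran between 40.9% and 49.7% by width and between 39.5% and 50.1% by percentile. Peak width also differed between the lists as a whole, with medians of 594 and 550 bp in DEK KO replicates 1 and 2. The shortest peak listed was 239 bp in DEK KO replicate 1 and 214 bp in DEK KO replicate 2, against 225 and 237 bp in WT control replicates 1 and 2. The part of the list-wide width in these shares was not tested.

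**Figure D2:**
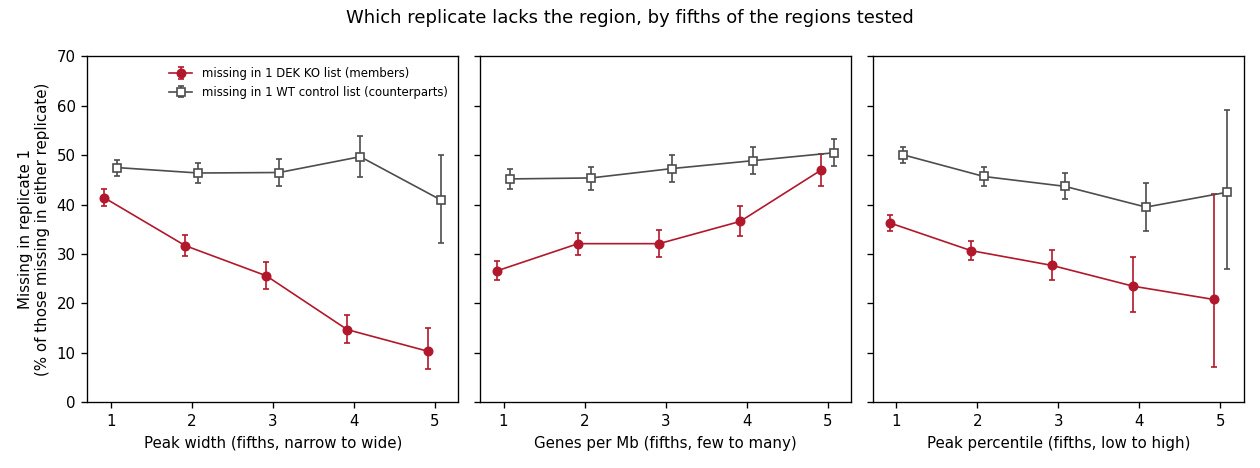
Members missing in DEK KO replicate 1 as a percentage of members missing in either replicate (filled circles), and counterparts missing in WT control replicate 1 likewise (open squares), over 5 groups of regions split by peak width, genes per Mb and peak percentile. Bars are exact 95% binomial intervals. The member share falls from 41.4% to 10.3% with width and climbs from 26.6% to 47.0% with gene number. Width and percentile are means over the control lists for members and over the DEK KO lists for counterparts.

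Regions called in all 4 lists hold no member, and by position and gene number they differed between the DEK KO libraries along the same lines. Their median log2 ratio of summit pileup, DEK KO replicate 1 over replicate 2, was -0.33 at gene ends, -0.17 inside gene spans and -0.18 between genes. It was -0.31 where genes were most numerous and -0.14 where they were fewest. The same ratio for WT control replicate 1 over replicate 2 was -0.06 at gene ends and ran from -0.05 to 0.04 over the groups of gene number. In DEK KO replicate 2 shared peaks thus held more reads at the summit at each of these positions, and most so at gene ends. This list nonetheless lacked more members. Pileups are read counts not adjusted for library depth, and the part of depth in these ratios was not tested. By control peak width the pileup ratio of the shared regions did not follow the members. The DEK KO log2 ratio was -0.17 in the narrowest group and -0.25 in the widest, where members were mostly missing in replicate 2. In percentile within the list, DEK KO replicate 1 minus replicate 2, the median was 2.11 points where genes were fewest and -0.55 points where they were most numerous. For the WT controls the same difference was 0.06 and -0.90 points, a smaller fall in the same direction. At gene ends it was -0.66 points in DEK KO and -1.02 points in the WT controls. The share of all listed peaks that lay at gene ends was 12.96% in DEK KO replicate 1 and 13.58% in replicate 2. Whether this list-wide balance accounts for the members was not tested.

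By chromosome, members missing in DEK KO replicate 1 made up between 24.5% and 60.5% of the members, with an SD of 7.27 points over 22 chromosomes. The interval lay below the overall 33.0% on chromosome 1 (26.7%, 23.8 to 29.8) and chromosome 2 (24.5%, 21.4 to 27.8). It lay above on chromosome 7 (40.3%), chromosome 17 (44.4%) and chromosome 19 (60.5%, 51.1 to 69.3). Chromosome 19, the most gene-dense human chromosome, had 72 members missing in replicate 1 and 47 missing in replicate 2, whereas chromosome 2 had 181 and 558. The counterparts varied less, between 41.9% and 57.2% with an SD of 4.01 points, and lay above their overall share on chromosomes 19 and 22. The share of regions of both control lists that was missing varied less between chromosomes for replicate 1 (1.96% to 4.19%) than for replicate 2 (2.32% to 8.29%).

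**Figure D3:**
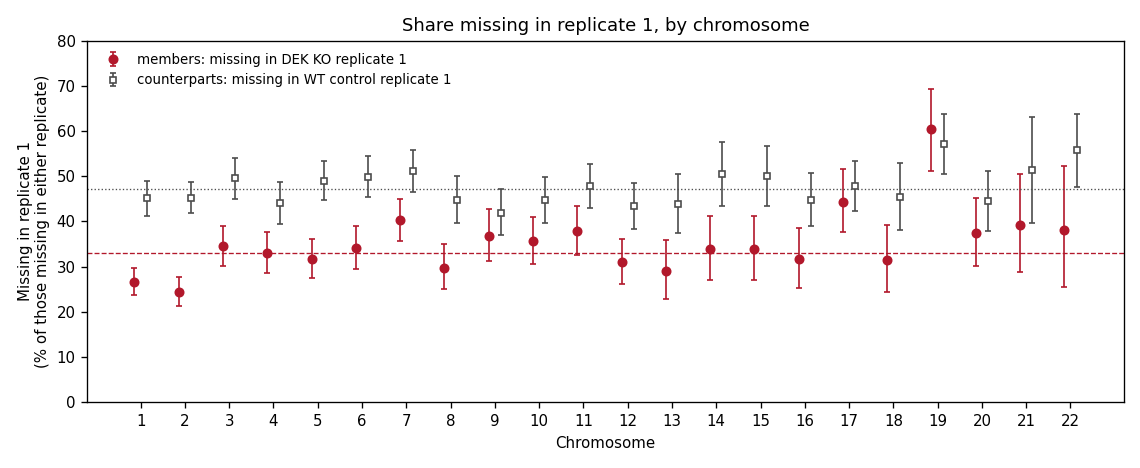
Share of members missing in DEK KO replicate 1 (filled circles) and share of counterparts missing in WT control replicate 1 (open squares) on each chromosome, with exact 95% binomial intervals. Dashed and dotted lines mark the overall shares of 33.0% and 47.1%. Chromosomes 1 and 2 lie below the line for members, and chromosomes 7, 17 and 19 lie above it.

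Over the 22 chromosomes, the share of members missing in DEK KO replicate 1 went down as the shared regions ranked higher in replicate 1 than in replicate 2 (Pearson's r -0.76, Spearman's coefficient -0.74, and -0.78 and -0.70 without chromosome 19). On chromosome 1 the median percentile of shared regions was 3.41 points higher in DEK KO replicate 1 than in replicate 2, and on chromosome 19 the difference was -1.38 points. With genes per Mb Pearson's r was 0.83 and Spearman's coefficient 0.52, and they were 0.51 and 0.44 without chromosome 19. With the counterpart share they were 0.65 and 0.53, and 0.45 for both measures without chromosome 19. Gene number did not order all chromosomes. Chromosomes 1, 11 and 20 had the same median of 9 genes per Mb around control regions, but shares of 26.7%, 37.9% and 37.4%. Chromosomes 2 and 7 both had 6, with shares of 24.5% and 40.3%, and shared regions on chromosome 7 differed by -1.22 points. The chromosomes share the same 4 libraries and differ in gene content and base composition, so these correlations are descriptions.

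**Figure D4:**
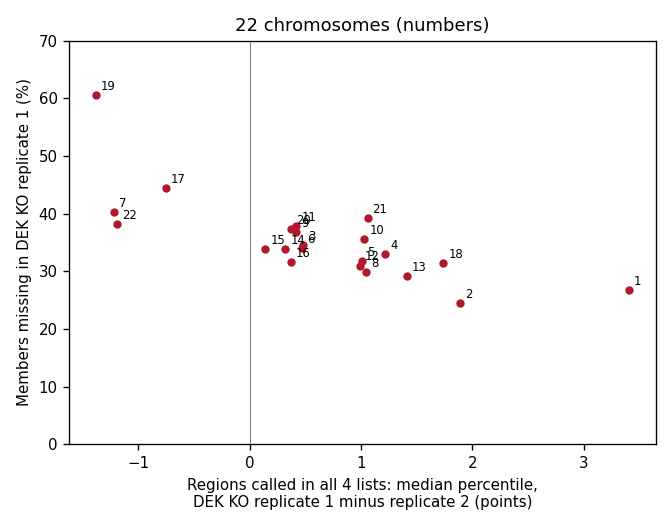
Each point is 1 chromosome, labelled by its number. The horizontal axis gives the median percentile difference, DEK KO replicate 1 minus replicate 2, over regions called in all 4 lists, and the vertical axis the percentage of members missing in DEK KO replicate 1. Chromosome 19 lies at -1.38 points and 60.5%, and chromosome 1 at 3.41 points and 26.7%.

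Of 196 bins of 10 Mb that held at least 20 members, 8 had an interval below the overall share and 10 above it. With 196 intervals of 95% each, some lie off that share by counting error alone, and the bins named here were picked as extremes. The lowest share was on chromosome 1 from 230 to 240 Mb, with 3 members missing in DEK KO replicate 1 and 35 missing in replicate 2 (7.89%). The highest was on chromosome 19 from 0 to 10 Mb, with 25 and 7 (78.1%, 60.0 to 90.7). A bin at the end of the long arm of chromosome 7, from 150 to 160 Mb, had 16 and 5 (76.2%). In 16 bins more members were missing in replicate 1 than in replicate 2.

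A member was ranked by the lowest percentile that it reached in the 3 lists holding it, so tall peaks in those lists follow from the ranking. At the promoter of CCDC146 (chromosome 7, 77122347 to 77122651), missing in DEK KO replicate 1, the summit pileup was 118 reads in DEK KO replicate 2 and 75 and 103 reads in WT control replicates 1 and 2. The lowest percentile was 87.6, the highest of any member, and the nearest peak of DEK KO replicate 1 lay 153 kb away. At NOTCH2NLC (chromosome 1, 149390234 to 149390800) the pileup was 54 reads in DEK KO replicate 2 and 49 and 58 in the WT controls, with the nearest peak of replicate 1 246 kb away. NOTCH2NLC has near-identical copies on chromosome 1, so its reads could be split between them and the region is uncertain.

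Of the other 6 named gene-end members missing in DEK KO replicate 1, KDM3B, SH3GLB2 and BFSP1 had a peak of that library within 1 kb. At KDM3B the pileup was 70 reads in DEK KO replicate 2 and 80 and 65 in the WT controls, and a peak of replicate 1 lay 326 bp away. SH3GLB2, which encodes an endophilin of membrane curvature, had 66 reads in DEK KO replicate 2 and 71 and 73 in the WT controls, with a peak of replicate 1 at 408 bp. BFSP1, an intermediate filament gene of the lens, had 63 reads in DEK KO replicate 2 and 85 and 83 in the WT controls, with a peak at 391 bp. At DBN1, MATN2 and C2CD4D the nearest peak of replicate 1 lay 1.07, 1.42 and 3.41 kb away. DBN1, the gene of the actin-binding protein drebrin, had 128 reads in DEK KO replicate 2 and 126 and 114 in the WT controls. MATN2, a matrix protein gene, had 48 reads in DEK KO replicate 2 and 59 and 50 in the WT controls, and C2CD4D had 46 reads in DEK KO replicate 2 and 44 and 54 in the WT controls. The merged regions at CCDC146, DBN1, SH3GLB2 and KDM3B were 298 to 368 bp wide.

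Away from gene ends, the highest-ranked members missing in DEK KO replicate 1 lay nearest to TRAM1L1, DCK, KIF13A, PPCS and CXADR. The region by DCK, the kinase that starts deoxycytidine salvage, lay 1.29 kb from the gene and had 46 reads in DEK KO replicate 2 and 63 and 66 in the WT controls. The region nearest CXADR, the coxsackievirus and adenovirus receptor gene, lay 718 kb from it, with 37 reads in DEK KO replicate 2 and 42 and 44 in the WT controls, and the nearest peak of replicate 1 was 206 kb away.

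The highest-ranked gene-end member missing in DEK KO replicate 2 lay at P4HA2, a subunit of collagen prolyl 4-hydroxylase and a HIF target (chromosome 5, 132190137 to 132190652). Its pileup was 50 reads in DEK KO replicate 1 and 79 and 53 reads in WT control replicates 1 and 2, and the nearest peak of DEK KO replicate 2 lay 9.72 kb away. PYGO1, a coactivator of WNT signalling, had 36 reads in DEK KO replicate 1 and 32 and 40 in the WT controls. TEAD4, a transcription factor of the Hippo pathway, had 30 reads in DEK KO replicate 1 and 39 and 33 in the WT controls. CACNB2, a calcium channel subunit gene, had 22 reads in DEK KO replicate 1 and 52 and 40 in the WT controls. SULT4A1, CNPPD1, TRIM6 and EEIG2 completed the 8, with lowest percentiles from 53 to 59.4. A peak of DEK KO replicate 2 lay 266 bp from the TRIM6 region and 376 bp from the EEIG2 region. In 7 of the 8, all but PYGO1, DEK KO replicate 1 had fewer reads than both WT controls, and the median over all its peaks was also lower (25 reads against 31 and 30). None of the 8 overlapped a RefSeq promoter window, against 5 of the 8 missing in replicate 1.

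Away from gene ends, the region nearest PLD5 (chromosome 1, 242769917 to 242770946), 239 kb from the gene, had 47 reads in DEK KO replicate 1 and 51 and 65 in the WT controls. The region nearest TLE1, the gene of a Groucho corepressor, had 76 reads in DEK KO replicate 1 and 124 and 89 in the WT controls. Regions by MTX2, PRELID2 and RUNX1T1 followed, with lowest percentiles of 78, 77.6 and 76.8. Members above the 50th percentile in all 3 lists numbered 111 (4.78%) among those missing in replicate 1 and 243 (5.16%) among those missing in replicate 2. Of these strong members, 18 and 9 lay at gene ends and 93 and 234 lay away from them.

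**Figure D5:**
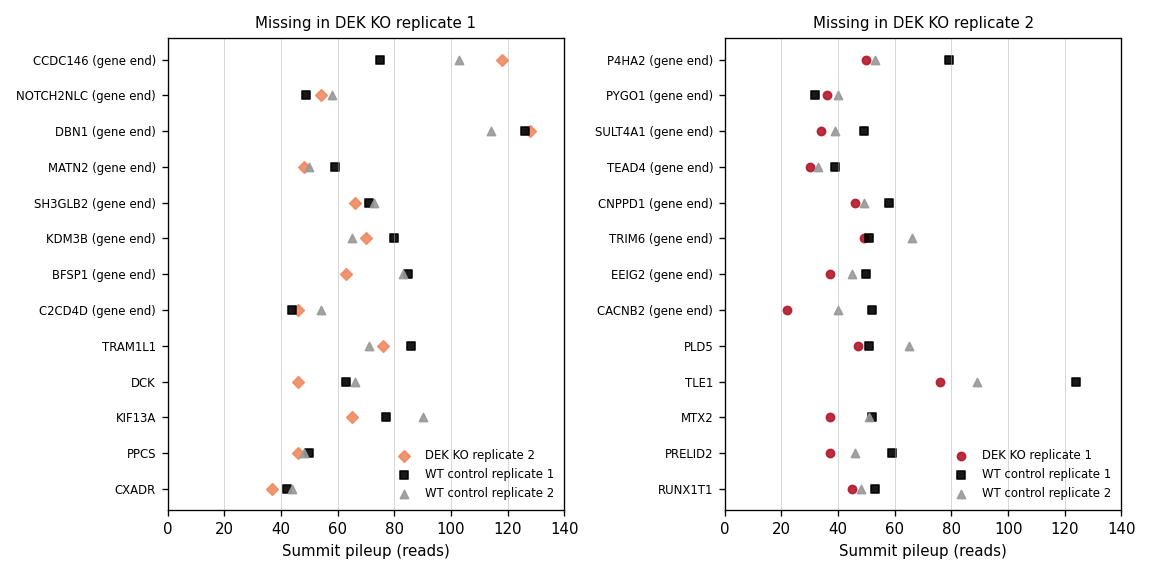
Summit pileup in reads at the 13 highest-ranked members of each set, 8 at gene ends and 5 away from them. Circles and diamonds are the DEK KO library that had the peak, squares and triangles WT control replicates 1 and 2. CCDC146 had 118 reads in DEK KO replicate 2 and P4HA2 had 50 in DEK KO replicate 1. The library lacking the peak has no point, since its reads are not in the list.

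A peak just under the limit of calling is not listed. The members just inside the rule, with the weakest peak that placed them there, were SNAPC1 (−log10 q of 1.32 in DEK KO replicate 2) and SLC5A9 (1.34 in DEK KO replicate 1). Just outside it, with the weakest peak of DEK KO replicate 1 that still counted as present in all 4 lists, was GNL1 (1.36). In the DEK KO list that had the peak, 13.4% of members missing in replicate 1 and 13.2% of those missing in replicate 2 fell into the lowest 10% of the list. A peak of the missing list lay within 1 kb of 265 members missing in replicate 1 (11.4%, 10.1 to 12.8) and of 310 missing in replicate 2 (6.58%, 5.89 to 7.32). The median distance to the nearest peak of the missing list was 5371 and 8140 bp. In bulk libraries, a site open in fewer cells and one less open in every cell cannot be told apart.

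A region was assigned to the protein-coding gene with the nearest end within 50 kb, which placed 1526 members missing in DEK KO replicate 1 and 2627 missing in replicate 2. They were 3.21% and 5.53% of the 47542 assigned regions of both control lists. In all, 3452 genes had a member: 1167 only members missing in replicate 1, 2028 only members missing in replicate 2, and 257 both. Most had 1, since 99 genes had at least 2 members missing in replicate 1 and 309 at least 2 missing in replicate 2.

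The largest surplus of members missing in DEK KO replicate 1 was at SLC2A1, the HIF-controlled glucose transporter gene, and at ARHGEF10L, with 3 and 0 members each. The SLC2A1 regions lay 11.3 kb and 1.8 kb outside the gene and 15.2 kb from its end inside it (chromosome 1, 42913463 to 42914020, 42923069 to 42923554 and 42943129 to 42943676). The first had 22 reads in DEK KO replicate 2 and 24 in both WT controls. The second had 56 reads in DEK KO replicate 2 and 83 and 61 in WT control replicates 1 and 2, and the third had 91 reads in DEK KO replicate 2 and 112 in both. The third passed the 50th percentile in all 3 lists, but peaks of DEK KO replicate 1 lay 0.542 kb from the second and 0.921 kb from the third. Of the 14 regions of both control lists assigned to SLC2A1, 10 were called in all 4 lists. The ARHGEF10L regions were weaker, with 9 to 20 reads in DEK KO replicate 2. The ARHGEF10L promoter printed above, missing in replicate 2, lies inside the gene more than 50 kb from its ends and is not among these counts. PTPN1, a tyrosine phosphatase, had 3 and 1 members, and AFF4, a scaffold of transcription elongation, had 2 and 0, a surplus that 80 genes shared.

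NXPH2, PKD1L1, PRRC2B and ZNF496 had 0 members missing in DEK KO replicate 1 and 4 missing in replicate 2. At NXPH2, a secreted neurexophilin, these were 4 of only 5 regions of both control lists, with 15 to 22 reads in DEK KO replicate 1 and 14 to 24 in the WT controls. At PKD1L1, a polycystin relative that acts in left-right patterning, the 4 regions had 9, 18, 12 and 10 reads in DEK KO replicate 1 and between 18 and 30 in the WT controls. At PRRC2B and ZNF496 all 8 regions but 1 had at least as many reads in both controls as in DEK KO replicate 1.

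Among lists of genes tied to the tumour and its tissue, HIF and hypoxia targets had 6 members missing in DEK KO replicate 1 and 5 missing in replicate 2 among 156 regions of both control lists. These were 3.85% and 3.21%, and all list counts stand beside 3.21% and 5.53% over all assigned regions. Besides SLC2A1 and P4HA2, ADM, the gene of the vasodilator adrenomedullin, had 39 reads in DEK KO replicate 2 and 38 and 44 in the WT controls at a region missing in replicate 1. EGLN3, a HIF prolyl hydroxylase gene, had 2 regions missing in replicate 2, with 11 and 18 reads in DEK KO replicate 1. Proximal tubule genes had 2 and 3 of 84 regions. The strongest of them was inside MME, the neprilysin gene, with 31 reads in DEK KO replicate 1 and 53 and 43 in the WT controls (lowest percentile 73.4). Distal nephron genes had 1 and 0 of 42, at the sodium channel gene SCNN1A. Renal lineage transcription factors had 4 and 4 of 90.

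Mesenchymal genes had 4 and 10 members of 159 regions, and epithelial junction and keratin genes 0 and 3 of 75. The mesenchymal shares, 2.52% and 6.29%, were near the 3.21% and 5.53% over all assigned regions. TNC, the gene of the matrix protein tenascin C, had 2 regions missing in replicate 2, with 16 and 31 reads in DEK KO replicate 1. The AP-1 family had 4 and 1 of 71 regions: FOS had 2 and 1, and BATF and FOSL2 had 1 and 0 each. The FOSL2 region had 31 reads in DEK KO replicate 2 and 44 and 49 in the WT controls. NF-kB and inflammatory genes had 4 and 2 of 80, with 1 region missing in replicate 1 at each of the chemokine genes CXCL1, CXCL2 and CXCL8. Those 3 regions were weak, with 9, 13 and 18 reads in DEK KO replicate 2 and 10 to 18 in the WT controls. Interferon response genes had 3 and 4 of 74.

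Among signalling genes, growth factor receptors and ligands had 6 and 16 members of 238 regions. EGFR, the receptor of epidermal growth factor, had 2 regions missing in DEK KO replicate 2, with 18 and 17 reads in DEK KO replicate 1 and 19 to 30 in the WT controls, and FGF2 also had 2. Genes of TGF-beta and BMP signalling held 4 and 9 of 178, and those of WNT signalling 4 and 7 of 128, with a gene-end region of the WNT inhibitor AXIN2 missing in replicate 1 (43 reads in DEK KO replicate 2, 40 and 34 in the WT controls). Hippo and TEAD targets had 9 and 12 of 188. PTPN14, a phosphatase that restrains YAP, had 2 and 2, and AMOTL2, a junction protein of the same pathway, had 0 and 2. The gene-end region of AMOTL2 had 37 reads in DEK KO replicate 1 and 74 and 72 in the WT controls. For none of these lists was a test made, and their counts stand beside 3.21% and 5.53% over all assigned regions.

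DEK partners and histone chaperones had 6 and 6 members of 93 regions, 6.45% for each replicate, against 3.21% and 5.53% over all assigned regions. ASF1A, a chaperone of histones H3 and H4, had 2 regions missing in DEK KO replicate 2, and the one at its gene end had 15 reads in DEK KO replicate 1 and 37 in both WT controls. NPM1, the nucleophosmin gene, had 1 of each set, both inside the gene span, with 21 reads in DEK KO replicate 2 at one and 23 in DEK KO replicate 1 at the other. Cell cycle genes had 2 and 3 of 87, and E2F7, a repressor of E2F targets, had 2 missing in replicate 2, the stronger with 51 reads in DEK KO replicate 1 and 70 and 75 in the WT controls. Targets of p53 had 1 and 4 of 91, with 2 missing in replicate 2 at the phosphatase gene PPM1D. Chromatin tumour suppressors of renal carcinoma had 1 and 1 of 40, at KMT2D and SMARCA4.

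Lists for other cell types were small, and their counts also stand beside 3.21% and 5.53% over all assigned regions. Blood cell markers had 1 and 1 of 33 regions, endothelial and fibroblast markers 2 and 3 of 68, neuronal markers 2 and 4 of 44 and hepatocyte markers 0 and 3 of 24. The strongest of the regions named from them was at the end of SCG2, a secretory granule gene, missing in DEK KO replicate 1 with 26 reads in DEK KO replicate 2 and 41 and 32 in the WT controls.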

How the data were processed

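The files were 4 narrowPeak lists, 1 per library, deposited by the authors on GRCh38 (hg38); the submitters' processing notes name Bowtie2 2.2.5 and MACS2 2.2.7.1 among other tools, without settings. The extraction text of the labels describes RNA, so library preparation and any shift of reads for transposition are not described there. In 99.957% to 99.978% of lines, the deposited score is 10 times the −log10 q cut to a whole number. The deposited fold is a ratio of summit pileup to local background, and the deposited −log10 p and −log10 q values are those of the authors' peak caller; the lowest −log10 q (1.3 to 1.32) corresponds to a q-value limit of 0.05. The last column is the authors' summit offset. Each library was called alone, so deeper or more concentrated libraries list different peaks. Fold and −log10 values were used only within a list.

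Peaks on chromosomes 1 to 22 were merged at an overlap of 1 bp. Percentiles rank −log10 p within a list. Summit pileup was solved from fold and p under a Poisson background, to a relative tolerance of 0.0001. Gene ends, gene spans and promoters came from RefSeq (GRCh38.p14, 19126 protein-coding genes on these chromosomes). Gene density counted genes with midpoints within a 1 Mb window. The 50 kb limit for assigning genes and the 1 kb limit for gene ends were set by choice. All 509 genes of the 21 lists matched, 2 of them by an older name.

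The named regions were, per set, the 8 gene-end and 5 other regions with the highest lowest percentile, the 4 genes with the largest surplus, up to 3 genes per list with the most members, fixed markers and the regions nearest the calling limit. ADM and CXCL8, and the genes named with runs of neighbouring members, were chosen after their values were seen. A few regions that this rule names are not reported here. The members and lists were chosen with earlier results of these data known. Python 3.11.15, numpy 2.4.6, pandas 2.3.3, scipy 1.17.1 and matplotlib 3.10.9 were used. The steps were checked on simulated lists. Shares carry exact 95% Clopper-Pearson intervals. The count per library was tested by exact permutation, and no other test was made. Motifs were searched in promoters only, since no genome sequence was used here, and no sequence was drawn from chromosome 8.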

Additional observations from a re-analysis of the deposited data

How the results depend on the processing

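Of 97 alternative values, 68 stayed within the tolerance set for their kind, 26 moved beyond it and 3 reversed; counts were allowed a change of up to 1.5 times, shares and their differences the 95% interval of the main value, and the percentile difference only the SD between the 2 control lists. Leaving out a library loosens the rule: members missing in DEK KO replicate 1 numbered 3874 to 5777, and those missing in replicate 2 numbered 6714 to 8166. The share missing in replicate 1 was 36.5% to 36.6% without a WT control library, 35.8% with −log10 q of at least 5 and 36.5% with lists cut to the shortest. It was 27.4% with peaks of at least 300 bp only, and 31.9% without near misses within 1 kb and also without gene-end regions; these 3 settings, one without chromosome 19, and the contrasts by peak width and by gene number themselves were chosen after the data were seen. The gene-end difference was 8.39 points with gene ends within 5 kb. The difference in control percentile (-3.34) ran from -4.22 to -2.42 without a control library. It was -3.53 with peaks joined over at least 50% of the shorter one, -5.28 with the stricter q, -4.89 with cut lists, -3.48 with chromosome X and -6.6 when ranked by fold. It was -4.01 with peaks of at least 300 bp, -3.25 without near misses, -3.49 without gene-end regions and -3.46 without chromosome 19. With peaks of at least 300 bp, the near-peak difference (4.83 points) was 3.06, the contrast between the widest and narrowest of 5 width groups (-31.1) was -23.9, and that between most and fewest genes (20.4) was 15.1. The mean number missing per library, DEK KO minus WT control, reversed from -475 to 167 with the stricter q, 352.5 with cut lists and 93.5 with peaks of at least 300 bp, each with exact permutation p = 1. The cause of these shifts was not tested. With the replicate block, pairing libraries by their number, the difference stayed -475 (exact sign-flip permutation p = 1, smallest possible 0.5). Depth limits all of this: median summits were 25 to 31 reads, and a missing peak may lie just under the limit.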

Other observations

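Members missing in the same DEK KO library were sometimes neighbours. Among regions of both control lists in order along a chromosome, members missing in DEK KO replicate 1 formed 80 pairs and 2 triples, and 7.15% of them lay next to another. Members missing in DEK KO replicate 2 formed 332 pairs, 32 triples and 3 longer runs, and 16.4% of them lay next to another. The 2 sets were 3.25% and 6.59% of these regions, and a larger set has more neighbours even in random order. How far set size accounts for the 2 shares was not tested. The longest run, 5 regions over 240 kb of chromosome 2 (77831195 to 78071263), lay by LRRTM4, a synaptic adhesion gene. Runs of 4 lay between PTH2R, a parathyroid hormone receptor gene, and MAP2, a neuronal microtubule gene (chromosome 2, 208648040 to 208985063, 337 kb), and by CCDC179 on chromosome 11 (22875833 to 23079457, 204 kb). For DEK KO replicate 1, the triples lay by ELFN1 on chromosome 7 (1713567 to 1751040, 37.5 kb) and by HRH4, a histamine receptor gene, and ZNF521 on chromosome 18 (24726628 to 25231468, 505 kb).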
